A study of Mus musculus with 69 samples.

Results

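The neurogenin, NeuroD and Nhlh genes encode basic helix-loop-helix (bHLH) transcription factors of the neuronal lineage. The 7 genes described here are Neurog1, Neurog2, Neurod1, Neurod2, Neurod4, Neurod6 and Nhlh1, taken by name from the 18194 genes read on the array. They were followed through 69 single cells of the E14 mouse dorsal forebrain (embryonic day 14, strain CD1). The study's labels put 3 cells in the cortical plate (CP), where newborn neurons settle, and 66 in the germinal layer of the ventricular and subventricular zone (VZ/SVZ), where progenitors divide. Trypsin-dissociated cells were picked by hand at random, and each was lysed on its own. Of 102 cells amplified, 70 were put on arrays, each on its own array, so 1 sample is 1 cell. The series read here holds 69 cells, and why this is fewer than 70 is not known here. No label names an animal or a litter. With no such label the cells of a zone make up 1 sample rather than replicates, and no test between zones was made. The titles also carry a letter: all CP cells have E, and the VZ/SVZ cells have A (7 cells), B (14), C (7), D (7) or X (31). The labels do not say what the letters stand for. They may have been set from the cells' own profiles, so values by letter are descriptions. For the 3 CP cells the description label names the VZ/SVZ instead, and the source label was used.

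A bHLH factor of this kind binds DNA as a heterodimer with a widely expressed E protein, at a six-letter element called the E-box. Neurogenins act in dividing progenitors of the dorsal forebrain, where they start neuronal differentiation and switch on Notch ligands that keep neighbouring cells undifferentiated. NeuroD and Nhlh factors are known as later members of the same cascade, some of them direct neurogenin targets, and Neurod2 and Neurod6 remain on in postmitotic pyramidal neurons. Id proteins hold E proteins in inactive dimers, and Hes proteins repress proneural genes downstream of Notch. Sox2 marks apical progenitors, Eomes (Tbr2) marks intermediate progenitors, and Tbr1 marks early glutamatergic neurons. These 3 markers served as the landmarks against which the cascade was placed.

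The promoters of the 5 members that were found in at least 10 VZ/SVZ cells are shown because these members were on in overlapping sets of cells. Each is the 250 bases before the annotated start, 5′ to 3′ on the gene's own strand, from RefSeq on the GRCm38.p6 build. Capitals mark the E-box letters CAGATG or CAGCTG or CATATG on either strand. CAGCTG and CATATG read the same on both strands, CAGATG reads CATCTG on the other, and the 3 letter strings cannot start at the same base.
Neurog2 (chr3:127632886-127633135, plus strand): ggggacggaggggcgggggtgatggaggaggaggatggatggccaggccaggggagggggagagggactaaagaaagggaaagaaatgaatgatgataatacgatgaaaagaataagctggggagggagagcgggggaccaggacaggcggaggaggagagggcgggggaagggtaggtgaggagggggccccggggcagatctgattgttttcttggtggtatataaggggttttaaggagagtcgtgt
Neurod6 (chr6:55681264-55681513, minus strand): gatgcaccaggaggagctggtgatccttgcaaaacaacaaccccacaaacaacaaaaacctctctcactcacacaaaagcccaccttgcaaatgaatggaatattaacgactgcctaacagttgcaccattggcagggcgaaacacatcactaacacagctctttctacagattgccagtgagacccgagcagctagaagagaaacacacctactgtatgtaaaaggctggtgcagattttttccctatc
Neurod2 (chr11:98329646-98329895, minus strand): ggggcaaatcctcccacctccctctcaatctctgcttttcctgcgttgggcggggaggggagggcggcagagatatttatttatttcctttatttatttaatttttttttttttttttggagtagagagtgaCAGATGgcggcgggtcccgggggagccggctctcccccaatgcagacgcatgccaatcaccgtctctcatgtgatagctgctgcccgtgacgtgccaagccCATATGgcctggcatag
Neurod1 (chr2:79456637-79456886, minus strand): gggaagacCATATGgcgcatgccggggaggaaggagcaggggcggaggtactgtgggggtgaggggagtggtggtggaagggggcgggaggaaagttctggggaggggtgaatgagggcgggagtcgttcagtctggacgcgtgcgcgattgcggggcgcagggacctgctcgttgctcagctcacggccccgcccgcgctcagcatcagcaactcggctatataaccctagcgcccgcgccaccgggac
Nhlh1 (chr1:172057597-172057846, minus strand): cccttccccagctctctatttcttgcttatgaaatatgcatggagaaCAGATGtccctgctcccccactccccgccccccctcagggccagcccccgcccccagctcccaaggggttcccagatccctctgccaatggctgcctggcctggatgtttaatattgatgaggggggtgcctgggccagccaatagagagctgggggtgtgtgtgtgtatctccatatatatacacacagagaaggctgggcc

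In the Neurod2 window, CAGATG began 118 bases and CATATG 17 bases before the start. Neurod1 held CATATG 242 bases before its start, and Nhlh1 held CAGATG 203 bases before its own. The windows of Neurog2 and Neurod6 held none of the 3, which says only that these letters are not in those 250 bases. Such matches are common: of 32851 windows of the same length in the table, 14.4% held CAGATG, 13% held CAGCTG, 3.46% held CATATG and 28.1% held at least 1 of them. All 7 members had a window, and they are descriptions of sequence, not sites of binding.

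Signals are the deposited linear values, 1 per probe set and cell. A gene was called found in a cell when its signal was above 50. Between 3713 and 4719 genes were found per CP cell (median 3904) and between 3726 and 5715 per VZ/SVZ cell (median 4712). None of the 207 values of the TrpnX control probe sets, which stand for an RNA not listed among those added, was above 50. The bacterial thr RNA, added at 5 copies per cell, was found in 0 of 3 CP cells, against 27 of 66 VZ/SVZ cells, so an RNA at a few copies can be missed. Each gene was read from its brightest probe set over all cells, by mean log2 signal before any floor. A limit beside a count of 0 is 3 cells over the number of cells. Intervals beside a share are exact Clopper-Pearson intervals at 95% and cover counting error only. Probe sets of different genes do not share a scale, so no signal of 1 gene is set against that of another, and an order of shares also depends on how well each probe set reports its RNA.

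**Figure D1:**
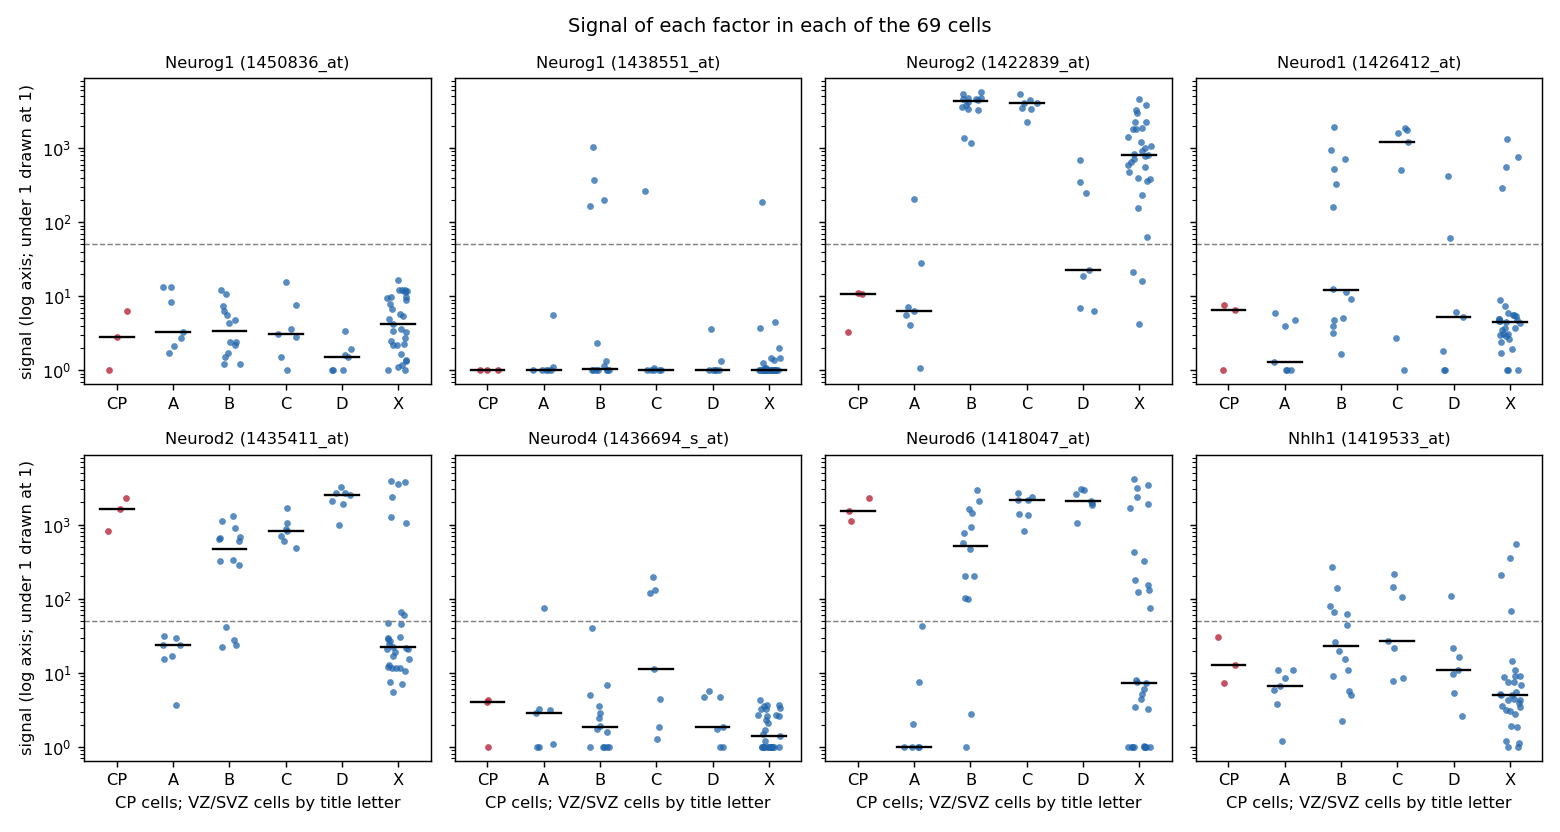
Signal of each factor (log axis, values under 1 drawn at 1) in each of the 69 cells, with the probe set named above each panel. Red points are the 3 CP cells, blue points the VZ/SVZ cells by title letter, black bars the medians, and the dashed line the threshold of 50. Neurod2 and Neurod6 are above the line in all 3 CP cells, Neurog2 in none of them and in every cell of letters B and C.

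The neurogenins differed in how widely they were found. Neurog2, the main proneural factor of the dorsal forebrain, read 3.24, 10.8 and 11.1 in the 3 CP cells, against a lowest value of 1.09, a median of 1033 and a highest value of 5664 in VZ/SVZ cells. Every CP cell was below the threshold, while 53 of 66 VZ/SVZ cells were above it (80.3%, 68.7% to 89.1%). The 13 VZ/SVZ cells not above 50 reached 28.4 at most, and the 53 others began at 62.4, followed by 157. By title letter, Neurog2 was found in 1 of 7 A cells, 14 of 14 B cells, 7 of 7 C cells, 3 of 7 D cells and 28 of 31 X cells. Its median signal was 6.38 in A, 4369 in B, 4020 in C, 22.6 in D and 803 in X. The lowest B cell, at 1182, lay above the highest A cell, at 206, and above the highest D cell, at 683.

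Neurog1, the paralog that acts beside Neurog2 in the cortex, depended on the probe set read. The brighter of its probe sets by mean log2 signal as deposited, with no floor, was 1450836_at. It was above 50 in 0 of 69 cells and reached 16.5 at most. In VZ/SVZ cells a count of 0 of 66 allows a share of up to 4.55%, taken as 3 cells of 66 (Clopper-Pearson limit 5.44%). The other, 1438551_at, read 0.422, 0.488 and 0.62 in CP cells, and was above 50 in 6 of 66 VZ/SVZ cells (9.09%, 3.41% to 18.7%). Its values left a wide gap: the other 60 cells reached 5.6 at most, and the 6 cells read 164, 189, 200, 261, 366 and 1050. The 6 were 4 B cells, 1 C cell and 1 X cell. All 6 had Neurog2, at 3225 to 5664, and all 6 had Eomes, at 836 to 4551, while none had Tbr1, with a highest value of 12.1. Of the 6, 5 had Sox2, 5 had Neurod6 and 3 had Neurod1. The single cell without Sox2, B-14L, held the highest Neurog1 signal of this probe set.

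Among the NeuroD factors, Neurod6 and Neurod2 were the most widely found. Neurod6, a factor of postmitotic pyramidal neurons, read 1524, 1130 and 2284 in CP cells, against 0.0892 at lowest, 169 at the median and 4209 at highest in VZ/SVZ cells. Every CP cell was above 50, as were 39 of 66 VZ/SVZ cells (59.1%, 46.3% to 71.1%). Neurod2, a close relative that acts in the same neurons, read 2269, 1643 and 814 in CP cells, against 3.69, 46.9 and 3868 as the lowest, median and highest values of VZ/SVZ cells. The 3 CP cells were above 50, and so were 32 of 66 VZ/SVZ cells (48.5%, 35.99% to 61.1%). For both genes the CP cells lay inside the range of the VZ/SVZ cells, whose D cells had medians of 2076 for Neurod6 and 2532 for Neurod2. Neurod6 was in 0 of 7 A, 12 of 14 B, 7 of 7 C, 7 of 7 D and 13 of 31 X cells, and Neurod2 in 0, 10, 7, 7 and 8 of them.

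The low values of Neurod2 lie close to the threshold. The 34 VZ/SVZ cells not above 50 had a median of 21.3 and a highest value of 47.7, and the lowest cell above it read 59.96. For Neurod6 the 27 cells not above 50 had a median of 0.831 and a highest value of 43.6, and the lowest cell above it read 74.0. A second Neurod2 probe set, 1418995_at, was above 50 in 29 VZ/SVZ cells with a median of 4.41 in the others. Over all 69 cells, both Neurod2 probe sets were above 50 in 31, only 1418995_at in 1 and only the brighter 1435411_at in 4. A further Neurod2 probe set, 1444362_at, was above 50 in no cell.

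Neurod1, Nhlh1 and Neurod4 were found in fewer cells. Neurod1, a neurogenin target known from intermediate progenitors and young neurons, read 7.68, 6.5 and 0.796 in CP cells, against 0.272, 4.78 and 1945 as the lowest, median and highest values of VZ/SVZ cells. No CP cell was above 50, against 17 of 66 VZ/SVZ cells (25.8%, 15.8% to 38.01%). Its values left a gap between 12.7, the highest cell not above 50, and 61.8, the lowest above it. By letter it was in 0 of 7 A, 6 of 14 B, 5 of 7 C, 2 of 7 D and 4 of 31 X cells. A second Neurod1 probe set, 1426413_at, was above 50 in 15 VZ/SVZ cells, of which 13 were shared.

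Nhlh1, a bHLH factor expressed as neuronal precursors leave the cell cycle, read 30.7, 7.3 and 12.7 in CP cells, against 0.541, 8.58 and 547 as the lowest, median and highest values of VZ/SVZ cells. Nhlh1 was found in 0 of 3 CP cells, against 13 of 66 VZ/SVZ cells (19.7%, 10.9% to 31.3%), with 0 in A, 5 in B, 3 in C, 1 in D and 4 in X. Nhlh1 values ran closely up to the threshold, with 44.3 as the highest below it and 62.7 as the lowest above it. Neurod4 (Math3), which acts with neurogenins in early neurogenesis, was found in 0 of 3 CP cells, against 4 of 66 VZ/SVZ cells (6.06%, 1.68% to 14.8%). Its brightest probe set, 1436694_s_at, whose suffix marks probes that may match several transcripts, read 198 in C-14K, 131 in C-23J, 119 in C-16N and 74.1 in A-17M. A second probe set, 1418054_at, was above 50 in C-14K, C-23J and A-17M, and 1418055_at in C-16N alone.

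In order of the share of VZ/SVZ cells, Neurog2 came before Neurod6, Neurod2, Neurod1, Nhlh1, Neurod4 and Neurog1. Neurog1 would stand before Neurod4 if read from 1438551_at. The intervals of neighbours in that order overlapped. Those of Neurog2 and Neurod2 did not, nor did those of Neurod2 and Nhlh1 or of Neurod1 and Neurod4. All shares come from the same cells and are not independent, so this is a description and no test between genes.

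The VZ/SVZ cells were then sorted by which of Sox2, Eomes and Tbr1 were above 50. Of the 8 possible combinations, 7 occurred: Sox2 alone in 27 cells, Sox2 and Eomes in 15, all 3 in 6, Eomes alone in 1, Eomes and Tbr1 in 6, Sox2 and Tbr1 in 1 and Tbr1 alone in 10. All 3 CP cells had Tbr1 alone. The cell-cycle gene Mki67 was in all 27 cells with Sox2 alone and in 0 of the 10 with Tbr1 alone, and Stmn2, a gene of growing axons, was in 1 of the 27 and in all 10. The combinations are made from measured values, and no test between them was made. They are given in the order from Sox2 alone to Tbr1 alone, which is the textbook order from apical progenitor to neuron and not a time measured here.

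**Figure D2:**
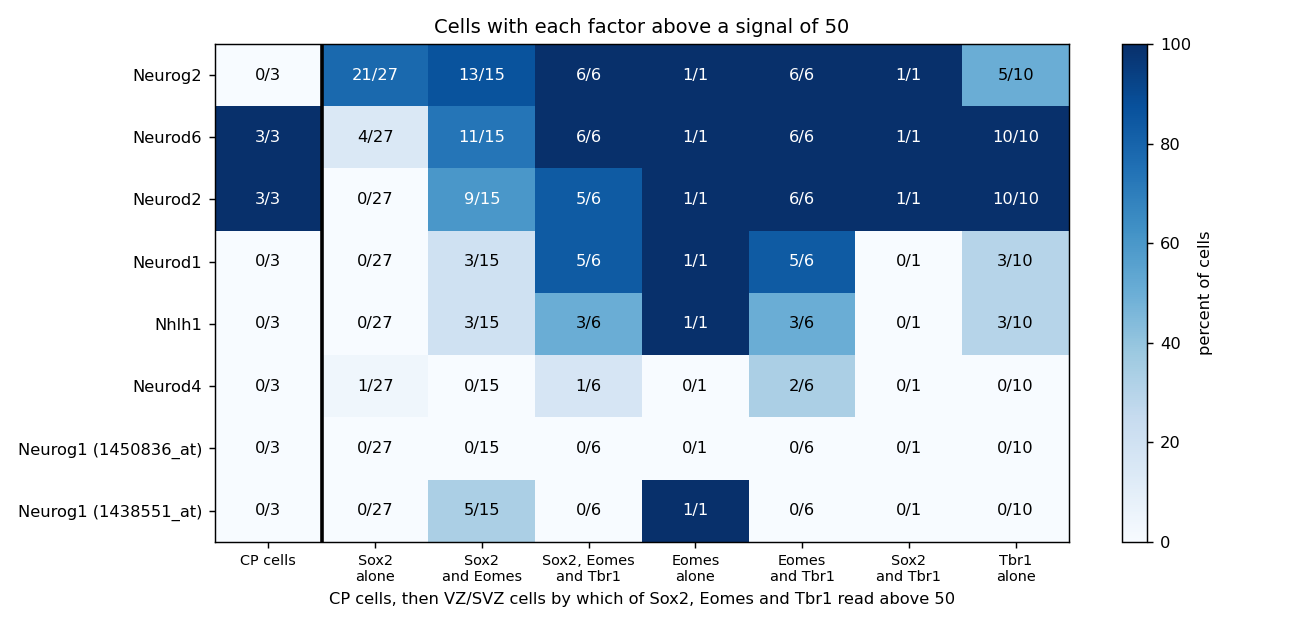
Number of cells with each factor above 50 out of the cells of each kind: the 3 CP cells at the left, then the 66 VZ/SVZ cells by marker combination. Shading is the percent of cells. Neurog2 is in 21 of 27 cells with Sox2 alone, where Neurod2, Neurod1 and Nhlh1 are in 0 of 27, and Neurod6 and Neurod2 are in 10 of 10 cells with Tbr1 alone.

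Neurog2 was present from the Sox2-alone cells on. It was in 21 of 27 cells with Sox2 alone, 13 of 15 with Sox2 and Eomes, 6 of 6 with all 3 markers, 6 of 6 with Eomes and Tbr1, and 5 of 10 with Tbr1 alone. Its median signal was 702 in Sox2-alone cells, 3585 with Sox2 and Eomes, 2781 with all 3 markers, 4043 with Eomes and Tbr1, and 134 with Tbr1 alone. The ranges of the first 2 of these overlapped, from 1.09 to 4662 and from 4.21 to 5664. With Tbr1 alone the highest cell read 683, below the lowest of the 6 cells with Eomes and Tbr1, at 2939. Among the 53 cells above 50, those with Eomes had a median of 3843 (26 cells) and those without it 775 (27 cells).

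Within the Sox2-alone cells, Neurog2 followed the title letter: it was in 1 of 7 A cells, in the single B cell and in 19 of 19 X cells. The 13 VZ/SVZ cells without Neurog2 were of 3 kinds. They were 6 A cells with Sox2 alone, with Neurod6 at 43.6 at most, 5 cells with Tbr1 alone and Neurod6 between 1876 and 4209, and 2 X cells with Sox2 and Eomes and Neurod6 at 3.22 and 7.38. The second kind, 4 D cells and X-8N, had Mki67 between 0.162 and 12.6, and the first had it between 1436 and 3989. In the 2 X cells of the third kind the other Eomes probe set, 1426001_at, read 4.33 and 0.606.

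Neurod6 appeared in fewer Sox2-alone cells and in every cell with Tbr1. It was in 4 of 27 cells with Sox2 alone (14.8%, 4.19% to 33.7%), 11 of 15 with Sox2 and Eomes, 6 of 6 with all 3 markers, 6 of 6 with Eomes and Tbr1, and 10 of 10 with Tbr1 alone. Its median signal in these combinations was 0.831, 205, 1422, 2257 and 2328. The 4 Sox2-alone cells were all X cells: X-23E read 74.0, X-15i 132, X-21F 182 and X-23B 322, against 43.6 at most in the 23 others. All 4 had Mki67, between 1924 and 4065, Pax6, a factor of apical progenitors, between 1772 and 2891, and Neurog2, between 157 and 2220. In the same 4 cells Neurod2 read between 19.2 and 47.7, and the microtubule gene Dcx of migrating neurons read 1.7 at most. The neuronal tubulin gene Tubb3 was above 50 in 2 of the 4, at 254 in X-15i and 545 in X-21F. Gadd45g, a growth-arrest gene, was above 50 in X-21F alone, at 141. Mki67 and Pax6 were in all 27 Sox2-alone cells, Dcx in 5, Tubb3 in 8 and Gadd45g in 3. These readings are thus not particular to the 4 cells. The count of 4 moved with the processing. It was 1 at a threshold of 200, 2 after quantile normalization, 7 with the mean of all probe sets and 0 without letter X. Neurod6, Sox2 and Tbr1 have 1 probe set each, so the count of 7 comes from the Eomes reading.

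Neurod2 was in 0 of 27 Sox2-alone cells, where a count of 0 allows a share of up to 11.1% (Clopper-Pearson limit 12.8%), in 9 of 15 cells with Sox2 and Eomes, 5 of 6 with all 3 markers, 6 of 6 with Eomes and Tbr1, and 10 of 10 with Tbr1 alone. Its median signal in these combinations was 21.03, 288, 901, 1084 and 2597. The lowest cell with Tbr1 alone, at 990, lay above the median of the cells with all 3 markers and below that of the cells with Eomes and Tbr1. The highest cell read 3802 with all 3 markers and 3868 with Tbr1 alone. The highest Sox2-alone cell read 47.7. The count of 0 became 1 with cells scaled to one trimmed mean, 1 after quantile normalization and 14 at a threshold of 6.26, the 95th percentile of the TrpnX values. The 14 are not out of 27, since Eomes and Tbr1 were called at 6.26 too. Cells such as A-11L, with Eomes at 18.3, thus left the Sox2-alone set. Every cell that stayed in the set had Neurod2 above 6.26, so at that threshold Neurod2 was not absent from Sox2-alone cells. Of the combinations held by a single cell, the one with Eomes alone, B-14L, had all 5 of Neurog2, Neurod6, Neurod2, Neurod1 and Nhlh1. The one with Sox2 and Tbr1 had Neurog2 at 1843, Neurod6 at 125 and Neurod2 at 65.4, and neither of the other 2.

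Neurod1 and Nhlh1 were most often found in the middle of the order. Neurod1 was in 0 of 27 cells with Sox2 alone, 3 of 15 with Sox2 and Eomes, 5 of 6 with all 3 markers (83.3%, 35.9% to 99.6%), 5 of 6 with Eomes and Tbr1, and 3 of 10 with Tbr1 alone (30%, 6.67% to 65.3%). Its highest value in a Sox2-alone cell was 7.37. Read from 1426413_at, Neurod1 was in 0 of 27, 4 of 15, 4 of 6, 3 of 6 and 3 of 10 cells of these combinations, a smaller rise in the middle. Nhlh1 was in 0 of 27, 3 of 15, 3 of 6, 3 of 6 and 3 of 10 cells in the same order, with a highest value of 14.6 in a Sox2-alone cell. The intervals of the middle combinations and of the Tbr1-alone cells overlapped for both genes. The thr RNA was found in 13 of the 27 Sox2-alone cells and in 2 of the 10 Tbr1-alone cells, and the median number of genes found was 4944 in the Sox2-alone and 4161 in the Tbr1-alone cells. The part of these differences in the lower count of Neurog2, Neurod1 and Nhlh1 in Tbr1-alone cells was not tested.

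**Figure D3:**
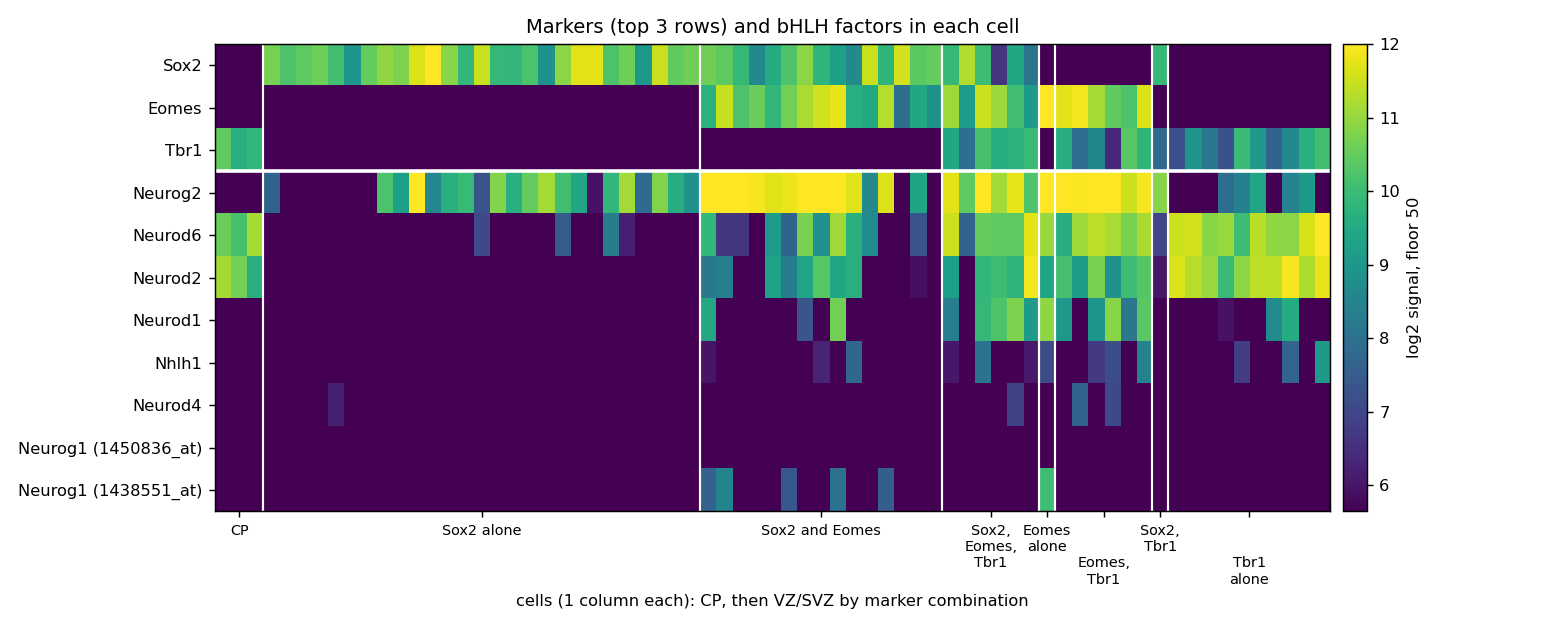
Log2 signal (values under 50 set to 50) of the 3 markers and the bHLH factors in each cell, 1 column per cell, with the 3 CP cells first and the VZ/SVZ cells by marker combination after them; the brightest colour stands for 12 and above. Neurog2 is bright in most cells up to the Eomes and Tbr1 combination, and Neurod6 and Neurod2 are bright in the Tbr1-alone cells and in the CP cells.

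The same counts can be read from the side of the factors, as the markers held by the cells of each. Sox2 was in 41 of the 53 Neurog2 cells (77.4%, 63.8% to 87.7%), in 22 of the 39 Neurod6 cells (56.4%, 39.6% to 72.2%), in 15 of the 32 Neurod2 cells (46.9%, 29.1% to 65.3%), in 8 of the 17 Neurod1 cells (47.1%, 22.98% to 72.2%) and in 6 of the 13 Nhlh1 cells (46.2%, 19.2% to 74.9%). Eomes was in 49.1%, 61.5%, 65.6%, 82.4% and 76.9% of them, and Tbr1 in 34.0%, 58.97%, 68.8%, 76.5% and 69.2%. Over all 66 cells the shares were 74.2% for Sox2, 42.4% for Eomes and 34.8% for Tbr1. The Neurog2 cells had shares near those of all 66 cells, a set that includes the X cells. For Tbr1 the interval of the Neurod2 cells, 49.99% to 83.9%, did not overlap that of the Neurog2 cells, 21.5% to 48.3%. The cells of different factors overlap, so these shares are not independent. Within the 31 X cells Tbr1 was in 6 of 28 Neurog2 cells, 7 of 13 Neurod6 cells, 7 of 8 Neurod2 cells and all 4 Neurod1 cells, the same order. Without the X cells Eomes was in 80% of Neurog2 cells. The Eomes share of Neurod1 cells then exceeded that of Neurog2 cells by 4.62 percentage points, against 33.3 with all cells, and the Tbr1 share of Neurod2 cells exceeded that of Neurog2 cells by 14.5, against 34.8. The order depended on the threshold: at 6.26, the 95th percentile of the TrpnX values, Neurod2 was in 97.0% of VZ/SVZ cells, and the shares of its cells differed from those of Neurog2 cells by 0.71 percentage points for Sox2 and -1.36 for Tbr1.

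**Figure D4:**
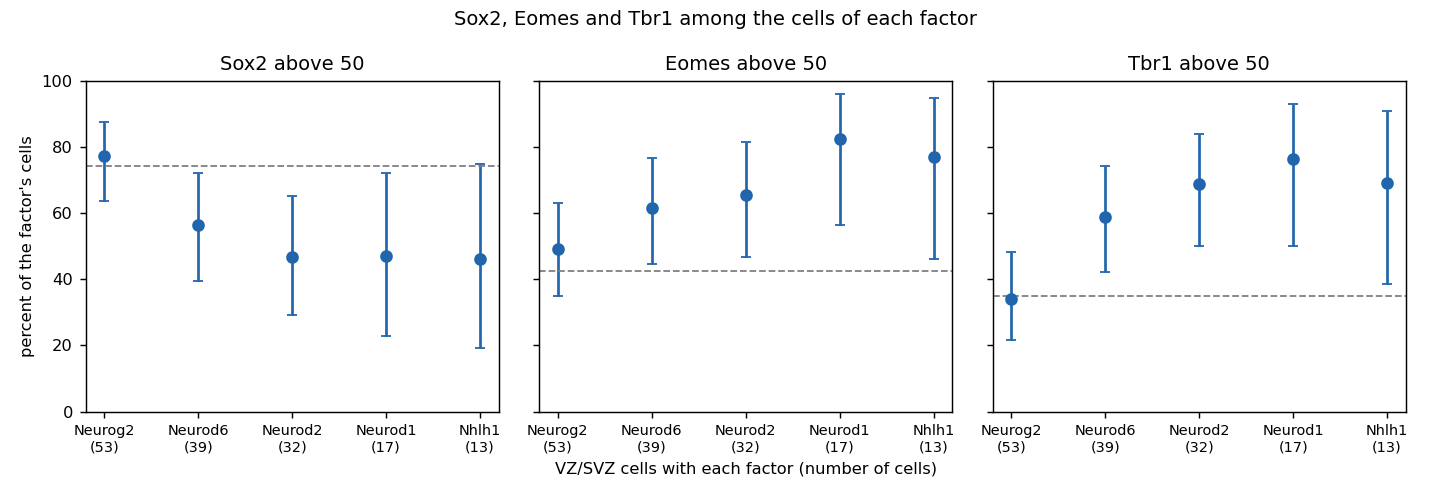
Percent of the VZ/SVZ cells of each factor (number in brackets) that also had Sox2, Eomes or Tbr1 above 50. Points are shares, bars their 95% Clopper-Pearson intervals, and dashed lines the share among all 66 cells. The Tbr1 share is 34.0% for Neurog2 cells and between 58.97% and 76.5% for the others, and all neighbouring intervals overlap.

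The factors were also found in nested sets of cells. All 32 VZ/SVZ cells with Neurod2 had Neurod6, and all 17 with Neurod1 and all 13 with Nhlh1 had both Neurod2 and Neurod6. Of the 39 Neurod6 cells, 7 lacked Neurod2. Those 7 all had Sox2 and Neurog2, and their Neurod6 signal, 74.0 to 423, was below the median of 1458 among all Neurod6 cells of the VZ/SVZ. Their Neurod2 signal was 17.02 to 47.7. The 4 Sox2-alone cells with Neurod6 are among the 7, so a likeness to Sox2-alone cells is partly built in. B-16M, also among the 7, read 42.1 for Neurod2 here and 124 from 1418995_at, where the others were not above 50. Read from 1418995_at instead, all 29 Neurod2 cells had Neurod6, 16 of 17 Neurod1 cells had Neurod2 and 12 of 13 Nhlh1 cells had it.

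Neurog2 was in 34 of the 39 Neurod6 cells, 27 of the 32 Neurod2 cells, 16 of the 17 Neurod1 cells and 12 of the 13 Nhlh1 cells. These shares are 87.2%, 84.4%, 94.1% and 92.3%, beside 80.3% of all 66 VZ/SVZ cells (53 cells). Those of Neurod6 and Neurod2 are thus near the share over all cells. The Neurod1 cell without Neurog2 was D-9B, where Neurog2 read 18.8. Read from 1426413_at, 2 of 15 Neurod1 cells lacked Neurog2, D-9B and D-18C. In D-18C this probe set read 55.3 and Neurog2 6.33. Neurod1 and Nhlh1 were not nested in each other: 9 cells had both, 8 Neurod1 alone of the pair and 4 Nhlh1 alone. Neurod4 was outside the nesting, since A-17M had none of the other members.

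Of the 32 sets that the 5 more common factors could form, 10 occurred. The largest was Neurog2 alone, in 19 cells, all with Sox2 and 2 with Eomes. Neurog2 with Neurod6 followed in 7 cells, and with Neurod6 and Neurod2 in 8. Neurod1 was added in 7 cells, Nhlh1 in 3 and both in 9, of which 8 had Eomes and 7 had Tbr1. Neurod6 and Neurod2 without the other factors were in 3 cells, all D cells with Tbr1 and without Sox2, which is also the set of the 3 CP cells. Among the 3 D cells was D-18C, where the second Neurod1 probe set, 1426413_at, read 55.3. Neurod6 and Neurod2 without Neurog2 were found beside Neurod1 in 1 cell and beside Nhlh1 in 1 cell. No factor of the 5 was found in 8 cells, 6 of letter A and 2 of letter X.

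**Figure D5:**
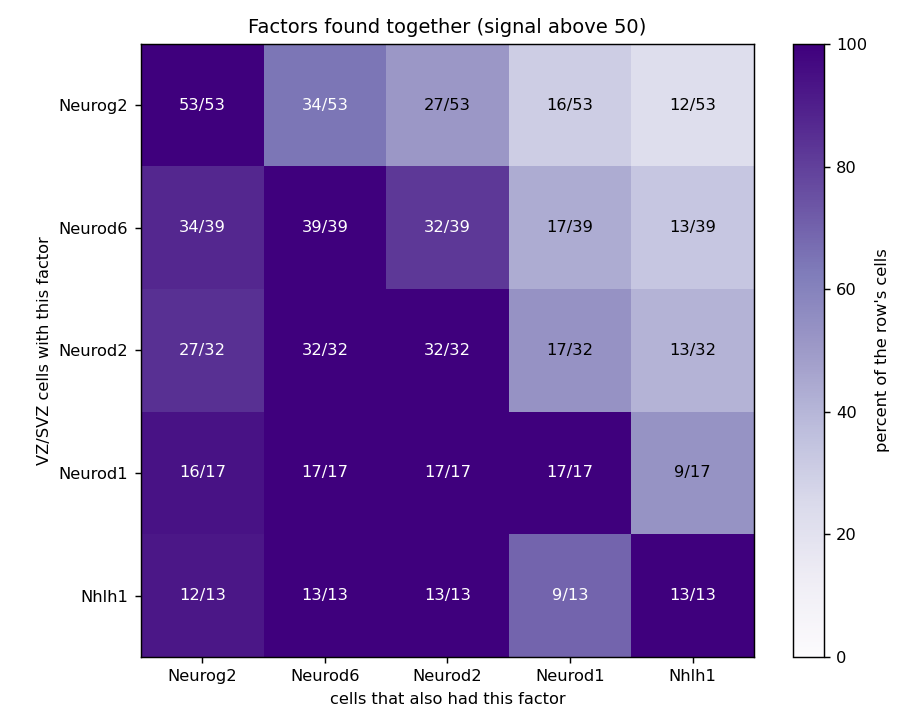
For each pair of factors, the VZ/SVZ cells that had the factor of the row (second number) and, of these, those that also had the factor of the column (first number), with the percent as shading. The rows of Neurod1 and Nhlh1 read 17 of 17 and 13 of 13 under both Neurod6 and Neurod2.

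Set against the zones, 2 members were higher and 1 was lower in CP cells by 1 log2 unit or more. Group means were taken on log2 of the signal with values under 50 set to 50, and the size rule is not a test. Neurod2 averaged 10.5 ± 0.76 in CP cells and 7.71 ± 2.38 in VZ/SVZ cells (SD over 3 and 66 cells), a difference of 2.79. Neurod6 averaged 10.62 ± 0.51 in CP cells and 8.11 ± 2.46 in VZ/SVZ cells, a difference of 2.52. Both differences are about the size of the spread between VZ/SVZ cells. Of all 18194 genes, 5.07% were higher in CP by this rule, against 2 of the 7 members. With the mean of all probe sets of a gene, the Neurod2 difference was 0.39 and 1 member was higher. That mean takes in 1444362_at, which was above 50 in no cell. Read from 1418995_at alone, Neurod2 averaged 9.16 in CP cells and 6.96 in VZ/SVZ cells. Neurog2 was below 50 in all CP cells and was at least 14.9-fold lower there, with a mean of 9.54 ± 2.42 in VZ/SVZ cells. Genes lower in CP made up 12.9% of all genes, so 1 of 7 members is near that background.

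The other members differed by less than 1 log2 unit between CP and VZ/SVZ cells. Neurod1 was at least 1.93-fold lower in CP, Nhlh1 at least 1.23-fold and Neurod4 at least 1.06-fold, and Neurog1 was below 50 in every cell of both zones with the brighter probe set. The median difference over the 7 members was -0.08, and that over all genes was 0. None of the 3 CP cells showed the thr RNA, and their median number of genes found was lower than that of VZ/SVZ cells. How much this adds to the lower values in CP was not tested. With 3 cells, a count of 0 leaves an interval up to 70.8%.

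The genes whose pattern was most like each member's were taken by Spearman's rho over the 66 VZ/SVZ cells, among 7622 genes found in 10% to 90% of them. The cells share the array platform but not a common scale, and rho is a description with no p. For Neurog2 they were Mfng (0.77), Gadd45g (0.75), Eomes (0.74), Insm1 (0.65) and Btg2 (0.60). Mfng encodes a glycosyltransferase that modifies Notch, Insm1 a zinc-finger factor of basal progenitors, and Gadd45g and Btg2 growth-arrest proteins. All 28 Gadd45g cells and 28 of the 29 Mfng cells were Neurog2 cells, beside 53 of all 66 VZ/SVZ cells (80.3%). Among the Neurog2 cells the median Neurog2 signal was 3708 with Gadd45g (28 cells) and 702 without it (25 cells).

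For Neurod1 the most alike genes were Scrt2 (0.81), Slc17a6 (0.79), Serping1 (0.79), Nrn1 (0.78) and Myt1 (0.75). Scrt2 encodes a Snail-family repressor of neuronal precursors, Slc17a6 the vesicular glutamate transporter VGLUT2, and Myt1 a zinc-finger factor of neuronal differentiation. Serping1 encodes the complement inhibitor C1-INH and Nrn1 neuritin, a protein of neurite growth. Scrt2 was in all 17 Neurod1 cells and in 24 VZ/SVZ cells in all. Slc17a6 was in 0 of the 3 CP cells and in 15 VZ/SVZ cells, 13 of them Neurod1 cells. For Nhlh1 the genes were Afap1 (0.67), Srrm4 (0.66), Scrt2 (0.65), Sstr2 (0.62) and Slc17a6 (0.62), so that Scrt2 and Slc17a6 stood in both lists. By Pearson's r 2 of the 5 most alike genes of Nhlh1 were the same, and Slc17a6 ranked 23 and Afap1 16. Srrm4 encodes a splicing factor of neurons and Sstr2 a somatostatin receptor.

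Neurod2 and Neurod6 had each other as the most alike gene, at 0.90. Kif21b, a kinesin, followed in both lists (0.88 with Neurod2, 0.84 with Neurod6), and Nsg2, a protein of neuronal endosomes, stood in both as well (0.88 and 0.84). The Neurod2 list also held Soga3 (0.88) and Crmp1 (0.88), a collapsin response mediator, and the Neurod6 list Ube2ql1 (0.83) and Nol4 (0.81). All of these were in 3 of 3 CP cells. Neurod2 ran against Sox2 (-0.75) and with Tbr1 (0.78), and Neurod6 likewise (-0.67 and 0.75). Neurog2 and Neurod2 were only weakly related (0.16), and Neurog2 and Neurod1 more so (0.44).

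Lists of pathway genes were compared between cells with and without Neurog2 or Neurod1. These groups also differ in the markers: Sox2 was in 8 of 17 cells with Neurod1 and 41 of 49 without it, Eomes in 14 of 17 and 14 of 49, and Tbr1 in 13 of 17 and 10 of 49. Of 20 genes known as targets or companions of neurogenins in the cortex, 13 were higher by at least 1 log2 unit in cells with Neurod1 and 0 were lower. Over all genes 2.26% were higher by the same rule and 2.54% lower. The median difference of the 20 was 2.03. The list was chosen with earlier results of these cells known and holds all 5 genes most like Neurog2, so its counts describe these genes and are not independent support. Myt1 was in 16 of 17 cells with Neurod1 and 12 of 49 without it, Sstr2 in 15 of 17 and 7 of 49, and Rnd2, a gene of neuronal migration, in 17 of 17 and 28 of 49. Dll1, a Notch ligand, was in 8 of 17 and 20 of 49, with a difference of 0.38 on the log2 scale.

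With Neurog2 as the divide, the groups differed in the markers too. Sox2 was in 41 of 53 cells with Neurog2 and 8 of 13 without it, Eomes in 26 of 53 and 2 of 13, and Tbr1 in 18 of 53 and 5 of 13. The 13 cells without it were the mixed set described above, and 4 of 4 cell-cycle genes measured were higher in the cells with it, with a median difference of 1.24. The part of these differences in the list's values was not tested. Of the 20 list genes, 7 were higher and 0 lower, against 1.68% and 1.09% of all genes, and their median difference was 0.75. The 7 were Mfng, Gadd45g, Eomes, Btg2, Insm1, Cbfa2t2 and Rnd2, with differences between 1.05 and 2.18. Gadd45g was in 28 of 53 cells with Neurog2 and 0 of 13 without it. Slc17a6 was in 15 of 53 and 0 of 13. Of the other 6 members, 0 differed by 1 log2 unit between cells with and without Neurog2, and Neurod2 and Neurod6 differed by -0.20 and 0.31. Between cells with and without Neurod1, 3 of the other 6 members were higher: Neurod6 by 3.68, Neurod2 by 3.13 and Neurog2 by 2.02. Of all genes, 2.26% were higher in that comparison. Neurod6 and Neurod2 were in all 17 Neurod1 cells, so their rise restates the nesting given above. In CP cells, 2 of the 20 list genes, Tbr1 and Dcx, were higher and 6, Mfng, Gadd45g, Btg2, Insm1, Eomes and Cbfa2t2, were lower, beside 5.07% of all genes higher and 12.9% lower.

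The dimer partners were widely found. The E-protein genes Tcf4 and Tcf12 were in 66 of 66 VZ/SVZ cells and Tcf3 in 60. Of the 3 CP cells, 3 had Tcf4, 1 had Tcf12 and 2 had Tcf3. All 3 were past the size rule in CP cells, where they fell by 1.2 for Tcf4, 3.76 for Tcf12 and 1.49 for Tcf3 on the log2 scale, in a comparison in which 12.9% of all genes were lower. They differed by less than 1 unit between cells with and without Neurog2 or Neurod1.

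Of the inhibitors, Id4 set the Neurod1 cells apart most. It was in 3 of 17 cells with Neurod1 and 42 of 49 without it, a difference of -3.94, and in all 27 Sox2-alone cells. Id1 was in 1 of 17 and 22 of 49 cells by Neurod1, and in 15 of 53 and 8 of 13 by Neurog2. Id2 was in 12 of 17 and 26 of 49 by Neurod1, and in 3 of 3 CP cells, where it was higher by 1.99. Id3 was in 1 VZ/SVZ cell. Hes1 was in 0 of 17 cells with Neurod1 and 19 of 49 without it, and Hes5 in 2 of 17 and 27 of 49, while Hey1 was in 10 of 17 and 37 of 49. Hes6, which antagonises Hes1 and promotes differentiation, was in 16 of 17 and 35 of 49. It was also higher in cells with Neurog2, by 1.75, although 41 of 53 and 10 of 13 cells had it.

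Other class II bHLH factors were nearly absent. Of the 8 on the list that were analysed here, Atoh7 was in 1 VZ/SVZ cell and Olig2 in 1, and Neurog3, Atoh1, Nhlh2, Olig1, Olig3 and Ptf1a were in none. Markers of other cell types were found in few cells. Of 3 endothelial, 3 microglial and 3 erythroid markers, 0 were found in any cell. Of 6 interneuron markers, Gad1, Dlx2, Dlx5 and Lhx6 were each in 1 VZ/SVZ cell, a Neurod1 cell. Their summed signal over the 6 ranged from 18.2 to 35.5 in CP cells and from 10.3 to 1334 in VZ/SVZ cells. Reln, a secreted protein of Cajal-Retzius cells, was in 4 VZ/SVZ cells, all of them Neurod1 cells, and of the other 4 markers of those cells Ebf3 was in 1 cell and Trp73, Lhx5 and Calb2 in 0. The summed signal of the 5 ranged from 30.3 to 31.7 in CP cells and from 9.21 to 1356 in VZ/SVZ cells. Of 4 meningeal and pericyte markers, Dcn was in 3, Col1a2 in 2, Pdgfrb in 2 and Col1a1 in 0 VZ/SVZ cells, none of them Neurod1 cells. Their summed signal ranged from 16.3 to 21.7 in CP cells and from 6.66 to 697 in VZ/SVZ cells. Of 3 markers of oligodendrocyte precursors, Sox10 and Olig2 were each in 1 VZ/SVZ cell and Pdgfra in 0, with summed signals of 18.99 to 21.3 in CP cells and 6.16 to 65.4 in VZ/SVZ cells. The part of these few cells in the Neurod1 comparison was not tested.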

How the data were processed

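Single cells were amplified and hybridised to Affymetrix arrays, and the deposited values are linear probe set intensities, which the submitters' processing notes credit to MAS5. How the authors scaled the arrays is not stated there, and the trimmed mean of a cell (2% off either end) lay between 50.1 and 142. Of 45101 probe sets, 34958 have 1 gene in the platform annotation and were used. For each of 18194 genes, the probe set brightest on average (log2, no floor) over the 69 cells was taken, and every other probe set of the members was read beside it. A signal above 50 counted as found, and values under 50 were set to 50 before log2 was taken. With 1 sample a zone, no test was run. Differences were counted by a size rule of 1 log2 unit. The genes named were the members, the 3 markers, the listed pathway and cell type genes (80 of 83 with a probe set) and the 5 most alike genes of each member found in at least 10 VZ/SVZ cells. Members and lists were chosen with earlier results of these data known. The scripts, in Python 3.11.15 with numpy 2.4.6, pandas 2.3.3 and scipy 1.17.1, were tested on simulated data. Alternatives were other thresholds, scalings, probe set rules and sets of cells.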

Additional observations from a re-analysis of the deposited data

Results flagged for a closer look

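Within the title letters of 7 cells, 4 values of members stood apart from the rest of their letter by the gap to the nearest other cell on the log2 scale with the floor of 50. Chance flags about 1 in 20 such groups, and 13 groups with a spread were examined. That rate is for values without a floor: a letter in which a single cell is above 50 is always picked out here, as for 3 of the 4. Neurog2 read 206.1 in A-11L, against 1.09 to 28.4 in the other 6 A cells. Neurod4 read 74.09 in A-17M, against 0.226 to 3.28 in the other A cells. Neurod1 read 419.4 in D-9B, against 0.272 to 61.8 in the other D cells. Nhlh1 read 110.5 in D-18O, against 2.64 to 21.7 in the other D cells.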

How the results depend on the processing

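A threshold at the 95th percentile of the TrpnX controls, 6.26, moved the most results. There Neurog1 was in 30.3% of VZ/SVZ cells, Neurog2 in 93.9%, Neurod2 in 97.0% and Nhlh1 in 59.1%. With Neurod2 in nearly every cell, its Sox2 share exceeded that of Neurog2 cells by 0.71 percentage points and its Tbr1 share was lower, at -1.36, so the order reversed. Neurod2 cells without Neurod6 then numbered 20, Neurod1 cells without Neurog2 0, and 2 members were lower in CP. At 200, Neurod4 was in 0% and Nhlh1 in 7.58% of cells, and 1 Neurod2 cell lacked Neurod6. Scaling cells to one trimmed mean gave 1 such cell, and quantile normalization 3, with 0 Neurod1 cells without Neurog2. With the mean of all probe sets, Neurod2 was in 34.8% of cells, 1 member was higher in CP, and 4 Neurod1 and 3 Nhlh1 cells lacked Neurod2. For Neurod2 that mean takes in 1444362_at, which was above 50 in no cell. Without letter X, Neurod2 was in 68.6% and Neurod6 in 74.3% of cells, 2 members were lower in CP, the Eomes share of Neurod1 cells exceeded that of Neurog2 cells by 4.62 points and the Tbr1 share of Neurod2 cells that of Neurog2 cells by 14.5. In letter X alone the last 2 were 53.6 and 66.1. Without the 10 cells with the fewest genes, 0 Neurod1 cells lacked Neurog2. With the probe set found in the most cells, chosen after seeing the data, Neurog1 was in 9.09%. Causes were not tested. A threshold of 100 and leaving out each CP cell in turn kept the counts of members higher and lower in CP. No paired analysis was possible because the cells carry no numbers that pair zones.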
